A study of Mus musculus with 3 samples.

Results

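The genes described here are 53 cytosolic ribosomal protein genes, taken by symbol from the 27998 genes of the count table. Of these, 32 encode proteins of the large subunit and 21 proteins of the small subunit. The table holds 80 cytosolic ribosomal protein genes in all, so 27 further ones lie outside the list and served as a comparison. The genes were followed across cell classes of the adult mouse subventricular zone, the germinal layer in the lateral wall of the lateral ventricles that holds neural stem cells and makes neuroblasts for the olfactory bulb.

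Cells came from 5 adult mice in which Cre driven by the Acta2 (smooth muscle actin) promoter and inducible by tamoxifen (aSMACreERt2) turns on tdTomato from the Rosa26 locus, crossed with a Sox2-GFP reporter (B6;129S-Sox2tm2Hoch/J). All mice carried both, on a mixed background that the strain label gives as C57/Bl6(3/4) crossed with 129S1SvlmJ(1/4). Tissue was dissociated with papain and sorted, and the cells were encapsulated for droplet sequencing of mRNA 3′ ends. One library holds tdTomato-positive, GFP-positive cells (1200 sorted). The other 2 hold tdTomato-negative, GFP-positive cells (1200 sorted for library 1 and 6000 for library 2). The age of the mice is not given in the sources used here. The tdTomato label marks cells in which the Acta2 promoter was active while Cre was inducible, and their descendants, so it depends on the reach of that promoter. Nothing in the labels ties a library to particular mice, so no p-value measures the spread between mice. The main class comparisons allow for differences between libraries. Their p-values rest on the spread left after that, estimated over the sums of all classes, which may be technical.

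A cytosolic ribosome is built from a small subunit, which reads the mRNA, and a large subunit, which joins amino acids. Each holds ribosomal RNA and one copy of most of its proteins, apart from the acidic P proteins Rplp1 and Rplp2, which sit as dimers on Rplp0 in a flexible stalk that recruits elongation factors. Ribosomal protein mRNAs are known for a 5′ terminal oligopyrimidine tract (5′ TOP), a run of C and T at the start of the transcript through which growth signals reaching mTOR control their translation. In the adult subventricular zone, quiescent neural stem cells are known for low protein synthesis, which rises when they are activated.

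The sequences below show runs of C and T near the annotated start sites of members whose place within the ribosomal protein mRNA pool differed between cell classes, described further on. RefSeq promoter windows (GRCm38.p6) were found for 43 of the 53 members. Each line gives the 45 bases before and 15 bases from the annotated start, 5′ to 3′ on the gene's strand, with the longest run of C and T in capitals. Rplp2 lies at chr7:141447606-141447665 (+), Rpl38 at chr11:114668535-114668594 (+), Rps27 at chr3:90213634-90213693 (-), Rpl35 at chr2:39005117-39005176 (-), Rpl15 at chr14:18270972-18271031 (-), Rpl4 at chr9:64173342-64173401 (+) and Rpl13 at chr8:123102305-123102364 (+).
Rplp2: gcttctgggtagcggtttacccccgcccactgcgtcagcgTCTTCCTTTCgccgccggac
Rpl38: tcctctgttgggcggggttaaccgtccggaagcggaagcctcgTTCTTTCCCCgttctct
Rps27: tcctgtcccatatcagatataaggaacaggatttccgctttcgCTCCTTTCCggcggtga
Rpl35: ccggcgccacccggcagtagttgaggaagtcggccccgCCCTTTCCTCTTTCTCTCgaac
Rpl15: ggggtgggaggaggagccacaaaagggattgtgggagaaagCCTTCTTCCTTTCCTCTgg
Rpl4: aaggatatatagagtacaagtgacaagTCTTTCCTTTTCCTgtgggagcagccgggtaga
Rpl13: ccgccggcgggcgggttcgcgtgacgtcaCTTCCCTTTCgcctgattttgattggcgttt
A run of at least 8 C or T on the gene's strand within 50 bases of the start was present in 36 of the 43 members with a window (83.7%) and in 10614 of all 27025 genes with one (39.3%). The letters CGGAAG, a motif bound by Ets family factors, were found on either strand of the 300-base window in 28 members (65.1%) and in 5075 of all genes (18.8%). Both are matches of letters and show neither a bound factor nor a transcribed start. The runs were 10, 10, 9, 18, 17, 14 and 10 bases long in the order printed. In Rpl4 and Rpl13 the run lies wholly before the annotated start, and in the others it spans it. Of the members printed, both those with a larger share of the pool in ependymal-like than in neuroblast-like cells (Rplp2, Rpl38, Rps27) and those with a smaller one (Rpl35, Rpl15, Rpl4) carry such a run. Rplp0, not printed, also had a smaller share there. Its longest run within 50 bases of the start was 7, short of the 8 set here.

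Together the 1629 cells kept held 5232503 UMIs (unique molecular identifiers, each counting 1 captured mRNA molecule), of which 449635 (8.59%) came from the 53 genes. All 80 cytosolic ribosomal protein genes held 13.3%, so the members made up 64.7% of that mRNA. The libraries kept 252 (tdTomato-positive), 256 and 1121 cells, with medians of 2535, 2639.5 and 2401 UMIs per cell. The tdTomato-positive library stood apart: its median mitochondrial share was 8.27%, against 3.22% and 3.38% in the negative libraries, and 177 of its cells were ependymal-like. It gave no usable sum of dividing cells or neuroblasts, so comparisons among those classes rest on the 2 negative libraries. Cell barcodes shared by a pair of libraries numbered at most 3. Sox2, the gene of the GFP gate, was detected in every class that was summed except the microglia-like one. Acta2, the promoter of the Cre driver, was measured in CPM, counts per 1000000 UMIs of a class summed within a library. Its level among ependymal-like cells was 605 CPM behind the tdTomato-positive gate and 356 and 253 CPM behind the negative gate.

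Cells were clustered and named from marker lists, and the UMIs of each class were summed within each library. No class map by the authors was used here, so the names are rebuilt. Gfap-poor astrocyte-like cells (202 cells, led by the astrocyte markers Slc7a10, Htra1 and Ntm) serve as non-dividing astroglia for comparison. Whether they are quiescent stem cells or astrocytes outside that lineage was not tested. Gfap-rich astrocyte-like cells (74, led by Gfap, Id3 and Thbs4) had Gfap at 2015 and 1188 CPM in the negative libraries, against 112 and 79 CPM in the Gfap-poor cells. Dividing cells (141) were led by Nusap1, Cenpf, Ube2c and Top2a. A cluster of 116 cells led by Ung, Mcm2, Gadd45g and Mcm3 met no marker rule and is called Mcm2-led. The remaining classes were neuroblast-like (324, Stmn2 and Tubb3), young neuron-like (391, Prokr2, Pbx3 and Foxp2), ependymal-like (234, Ccdc153, Rarres2, Tmem212 and Mia), oligodendrocyte precursor-like (49), oligodendrocyte-like (56), microglia-like (14), endothelial-like (20) and mural-like (8, too few to sum).

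The share of UMIs held by the 53 genes was lowest in Gfap-poor astrocyte-like cells. It was 2.76% and 2.71% in negative libraries 1 and 2 and 2.14% in the tdTomato-positive library, a mean of 2.54% ± 0.34 (SD, n = 3). Gfap-rich astrocyte-like cells held 5.10% and 5.78%, a mean of 5.44% ± 0.48 (SD, n = 2). Dividing cells held 9.14% and 9.67%, a mean of 9.40% ± 0.38 (SD, n = 2). Every library's value of one of these classes lay outside the range of the next, so the order from Gfap-poor through Gfap-rich to dividing cells held in both negative libraries.

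Above the dividing cells, neuroblast-like and young neuron-like cells could not be separated by this share: both stood at 10.5% in library 1 and 11.1% in library 2. The Mcm2-led cluster held the largest share of the classes with at least 2 sums, at 11.4% and 11.6%. Ependymal-like cells, the ciliated lining of the ventricle, held 6.43% and 6.54% in the negative libraries and 6.64% in the tdTomato-positive one, a mean of 6.54% ± 0.11 (SD, n = 3) and the smallest spread of these classes. They lay above the Gfap-rich cells and below the dividing ones in both negative libraries. Oligodendrocyte precursor-like cells (4.89% and 3.96%) and oligodendrocyte-like cells (4.69%, 4.73% and, tdTomato-positive, 4.18%) overlapped each other between the astrocyte-like classes. Endothelial-like cells held 8.56% and microglia-like cells 9.38%, each in the tdTomato-positive library alone.

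**Figure D1:**
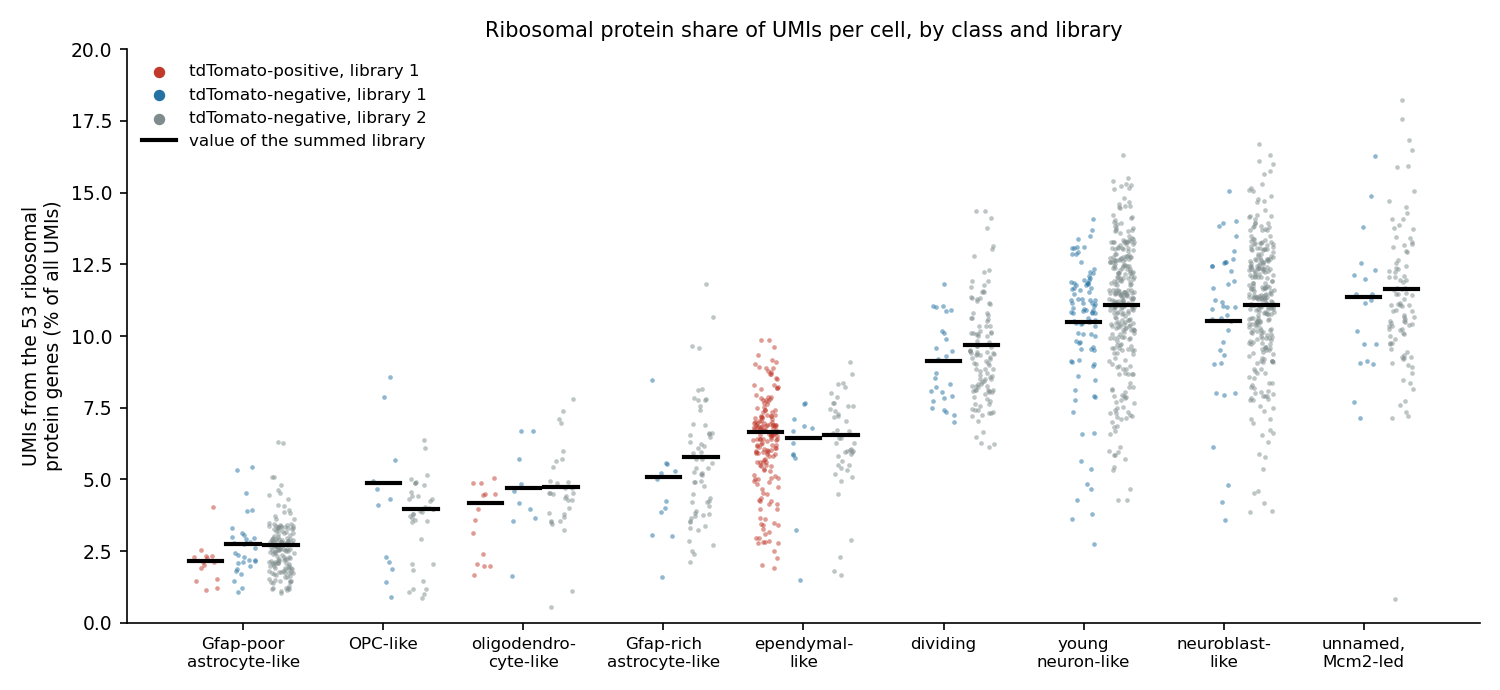
Percent of each cell's UMIs that came from the 53 ribosomal protein genes (vertical axis), by cell class and, in color, library, with black bars for the value of the summed cells of each library. The Gfap-poor cells lie lowest (sums of 2.14 to 2.76%), the Gfap-rich cells next among the astrocyte-like classes (5.10 and 5.78%), and the dividing, neuronal and Mcm2-led cells highest (9.14 to 11.6%).

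Single cells followed the sums. Of the dividing cells, 27 of 27 in library 1 and 111 of 114 in library 2 had a larger share than every Gfap-poor cell of the same library. For Gfap-rich cells this was so of 3 of 12 and 20 of 60, so most of them lay within the range of the Gfap-poor cells. Ependymal-like cells exceeded every Gfap-poor cell in 155 of 177 (tdTomato-positive), 10 of 12 and 22 of 45 cells. The highest Gfap-poor cell, at 4.05%, 5.42% and 6.31%, came from 14, 31 and 157 cells in these libraries. A maximum rises with the number of cells, so these fractions cannot be compared between libraries. Cells of 1 library are no replicates of a class, and these counts describe the libraries only.

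The share can rise with more ribosomal protein mRNA or with less of everything else, and the UMIs per cell give both sides as captured. In negative libraries 1 and 2 the median Gfap-poor cell held 52 and 58 UMIs of the 53 genes among 2364 and 2562 UMIs in all. A median dividing cell held 729 and 596.5 among 8349 and 6868.5 UMIs. Ribosomal protein UMIs per cell were therefore 14.0 and 10.3 times as many, while all UMIs per cell were 3.53 and 2.68 times as many.

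Gfap-rich cells had fewer UMIs per cell than Gfap-poor cells (ratios of 0.809 and 0.832), and still held 1.61 and 1.94 times as many of the 53 genes, 83.5 and 112.5 UMIs at the median. Neuroblast-like cells went the other way against dividing cells. The median cell held 359 and 264 such UMIs, ratios of 0.492 and 0.443, and its total had ratios of 0.365 and 0.334. In the summed cells, which weight large cells more than these medians do, the share was 1.15 times as large in each library. UMIs per cell mix RNA content with capture, and the part of capture in these ratios was not tested. With cells of at least 2000 UMIs only, the shares were 2.79% and 2.73% in Gfap-poor, 6.01% in Gfap-rich (library 2), 9.14% and 9.67% in dividing and 10.6% and 11.1% in neuroblast-like cells.

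**Figure D2:**
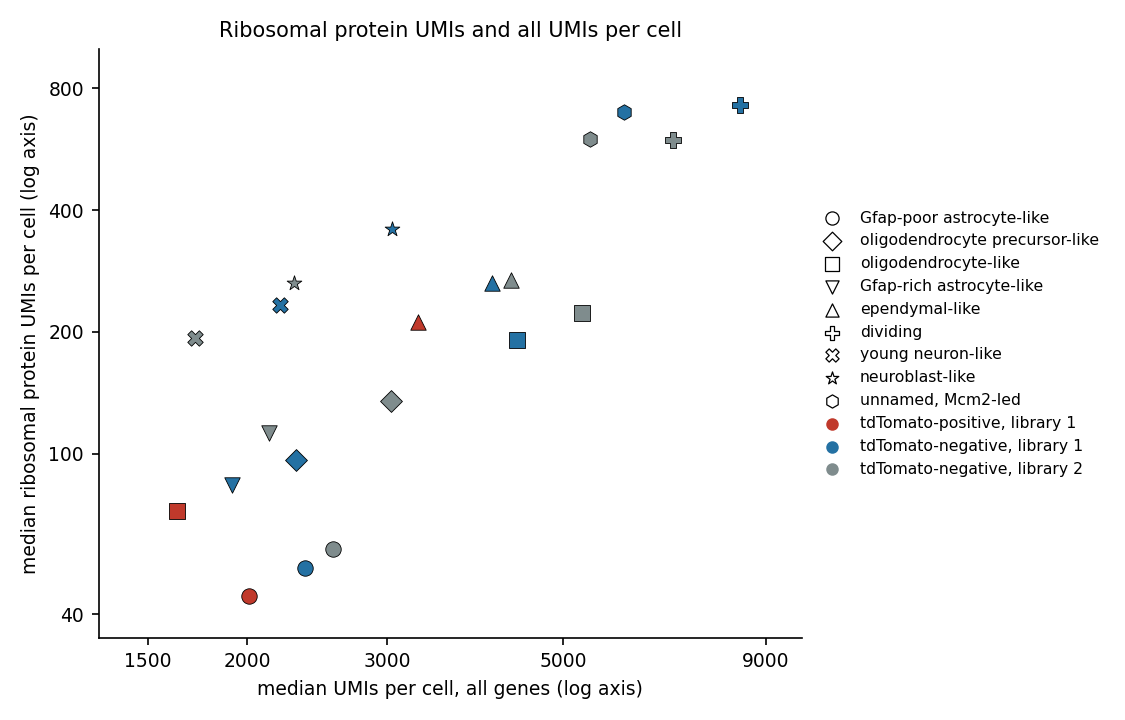
Median UMIs of the 53 genes per cell (vertical, log axis) against median UMIs of all genes per cell (horizontal, log axis), with a marker shape for each class and a color for each library. Gfap-poor cells hold 52 and 58 ribosomal protein UMIs at totals near those of neuroblast-like cells, which hold 359 and 264 (negative libraries 1 and 2).

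Within a class the genes moved together from cell to cell. The large-subunit and small-subunit shares of a cell had a Spearman rho between 0.65 (Gfap-poor, library 2) and 0.90 (dividing, library 2) over 13 sets of cells of 1 class and library, points that share a depth and a total. The spread between cells exceeded that of counting: the SD of the share was 1.79 percentage points among dividing cells of library 2 where counting alone gives 0.379, and 0.929 against 0.345 among its Gfap-poor cells. Among the tdTomato-positive ependymal-like cells the share fell with the mitochondrial share (rho -0.51) and rose with total UMIs (rho 0.45). In ependymal-like cells of negative library 2 these values were -0.42 and 0.24. The rho with total UMIs was 0.48 in oligodendrocyte precursor-like cells of library 2. The part of cell quality in that spread was not tested.

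Between Gfap-rich and Gfap-poor astrocyte-like cells, 17 of the 53 members rose and none fell at an adjusted p under 0.05 (edgeR's quasi-likelihood test with library as a block, Benjamini-Hochberg adjustment over all 3832 genes tested). Of all those genes, 1.54% were called higher and 1.46% lower. The median log2 fold change was 0.82 over the members, with all 53 between 0.46 and 1.26, and -0.11 over all genes. For 46 members every Gfap-rich sum lay above every Gfap-poor sum, as for 16.2% of all genes tested. The small subunit held 12 of the 17 calls, from 21 members, and the large subunit 5, from 32; whether the subunits differ was not tested.

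Rps25, a small-subunit protein, stood at 349, 381 and 229 CPM in Gfap-poor cells (negative 1, negative 2, tdTomato-positive) and at 900 and 1045 CPM in Gfap-rich cells. The groups did not overlap, and Rps25 rose by 1.26 ± 0.30 (log2, SE; edgeR adjusted p = 0.0018). Rpsa, the small-subunit protein also known as the laminin receptor precursor, stood at 210, 255 and 229 CPM against 557 and 692 CPM. It rose by 1.21 ± 0.32 (edgeR adjusted p = 0.00909). Rps19, the small-subunit protein whose human gene is mutated in Diamond-Blackfan anaemia, rose by 1.14 ± 0.29 from 489, 538 and 420 CPM to 1029 and 1422 CPM. Rps15 (1.15) and Rps9 (1.10), also of the small subunit, completed the 5 largest rises. Rps4x, the X-linked small-subunit gene, had the smallest value, 0.46 (adjusted p = 0.553), and its groups overlapped at 559, 434 and 534 against 515 and 857 CPM.

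The direction was shared by all members while the number of calls depended on single libraries. The calls did not hold without either negative library, where a lone Gfap-rich sum is assumed to vary like the others. Leaving out the tdTomato-positive library gave 37 calls, beside 106 higher and 83 lower among the 3006 genes then tested. Without the library block 1 member was called, beside 30 higher and 41 lower among all 3832. In the main fit, with the block, 46 members had an unadjusted edgeR p under 0.05, as did 14.0% of all genes tested. DESeq2 called 41 members, with a split over all genes of 99 higher to 28 lower, against 59 to 56 in edgeR. Summed marker levels stood beside this difference: the 14 neuroblast markers held 1415 and 1422 CPM in Gfap-rich and 866, 790 and 153 CPM in Gfap-poor cells, and in Gfap-rich cells of library 1 only 8 of them were above 0, with Dcx, Dlx6os1, Nrep, Shtn1, Sp8 and Tubb3 at 0 among 33 marker UMIs, while in library 2 all 14 were above 0 (189 UMIs). The 15 dividing-cell markers held 643 and 963 CPM against 797, 845 and 191 CPM, and Mki67, Ccna2 and Pbk were at 0 in the Gfap-rich cells of library 2. The median mitochondrial share was 4.66% and 5.84% in Gfap-rich against 4.79%, 4.54% and 8.88% in Gfap-poor cells. Their part in the difference was not tested.

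In dividing cells all 53 members rose over Gfap-poor cells (edgeR adjusted p under 0.05), while 21.6% of all genes tested were higher and 21.7% lower. The median log2 fold change was 1.64 (3.12-fold) over the members and 0.00 over all genes, and for every member both dividing sums lay above the 3 Gfap-poor sums, as for 31.8% of all genes tested. This class is shown by its cycle genes: the dividing-cell markers held 20437 and 20815 CPM in it. Neuroblast markers also stood higher in dividing cells, at 7426 and 6719 CPM, and the 15 astrocyte markers lower, at 564 and 734 against 27990, 26663 and 31491 CPM. Their part in the rise was not tested.

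Rplp0, the base of the stalk, led: it stood at 377, 399 and 382 CPM in Gfap-poor cells and at 2814 and 2682 CPM in dividing cells, a rise of 2.74 ± 0.26 (log2, SE; edgeR adjusted p = 9.42e-24). Rpl4, a large-subunit protein, part of which lines the exit tunnel, went from 293, 245 and 229 CPM to 1605 and 1737 CPM, a rise of 2.55 ± 0.27 (edgeR adjusted p = 5.49e-20). Neither gene's groups came near each other. Rpl38, a small protein of the large subunit known for its part in translating Hox mRNAs, rose least, by 1.17 ± 0.25 (edgeR adjusted p = 1.8e-05), from 992, 733 and 763 to 1931 and 1922 CPM. Rpsa, Rps19 and Rps24 lay near the top with 2.31, 2.30 and 2.27.

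Scaling bears on how far the rest of the transcriptome moved the other way. With RLE factors in place of TMM the median of all genes went from 0.00 to -0.29 and that of the members from 1.64 to 1.25, and the split of all calls went from 827 higher and 830 lower to 672 and 1071 (494 and 823 in DESeq2). All 53 members were called with either factors, and 43 when either negative library was left out.

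Against Gfap-rich cells, the members rose less far in dividing cells: 41 of 53 were called higher and none lower, with 13.9% of all genes higher and 12.8% lower. The median was 0.88 over the members (range 0.26 to 1.86) and 0.16 over all genes, and for 52 members both dividing sums lay above both Gfap-rich sums, as for 34.2% of all genes tested. The calls covered 26 large-subunit and 15 small-subunit members. Rpl4 went from 472 and 496 to 1605 and 1737 CPM (log2 1.86 ± 0.30, edgeR adjusted p = 1.29e-08) and Rplp0 from 858 and 903 to 2814 and 2682 CPM (1.74 ± 0.29, adjusted p = 3.17e-08). Rps4x, which had moved least between the astrocyte-like classes, came next at 1.57 ± 0.29, followed by Rpl32 (1.34) and Rps24 (1.32). Both comparisons use the same Gfap-rich sums with opposite sign, so the small and the large value of Rps4x are not independent. Rps27, a zinc-binding small-subunit protein, stood at 2659 and 2602 against 2774 and 2876 CPM, a difference of 0.26 that was not called (adjusted p = 0.543). Without negative library 1 no member was called, without negative library 2 11 were, and without the library block 17 were. RLE and DESeq2 moved the split over all genes from 532 higher and 491 lower to 438 and 636, and to 265 and 517.

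The Mcm2-led cluster was added to the comparisons after the data were seen. Against Gfap-rich cells 48 members were higher and none lower (10.2% and 10.5% of all genes), with a median of 1.08, and Rplp0 again led at 3649 and 3301 CPM (log2 1.97 ± 0.29, edgeR adjusted p = 5.8e-10). The cluster held dividing-cell markers at 7703 and 7304 CPM, about as many neuroblast markers as the dividing cells (7460 and 5850 CPM) and few astrocyte markers (1655 and 1658 CPM). Leaving out negative library 1 ended all calls and leaving out library 2 left 13, and DESeq2 moved the split over all genes from 390 higher and 402 lower to 196 and 383. Between dividing and Mcm2-led cells no member was called in edgeR (2.17% of all genes higher, 0.705% lower and 2.87% in all). Of the members 3 had an unadjusted edgeR p under 0.05, as did 9.92% of all genes. DESeq2 called 1 member lower (0.0783% of all genes). The median was -0.17, with the members between -0.53 and 0.01, and for 50 members both dividing sums lay below both Mcm2-led sums, as for 22.4% of all genes tested. DESeq2 moved the split over all genes from 83 higher and 27 lower to 21 and 3.

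**Figure D3:**
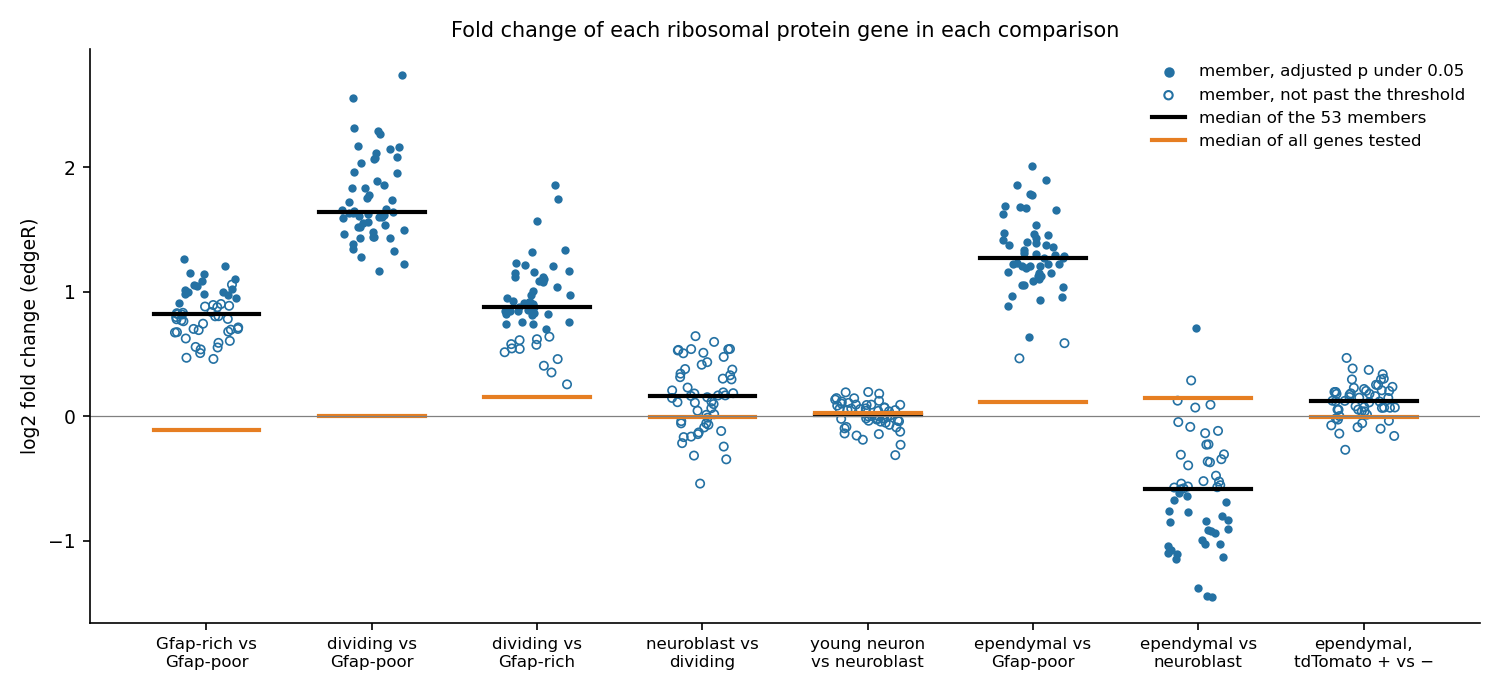
Log2 fold change of each of the 53 members (vertical axis) in 8 comparisons of cell classes or gates (horizontal axis), filled where the adjusted p was under 0.05 and open where not, with a black line at the members' median and an orange line at the median of all genes tested. All members lie above 0 in the comparisons of Gfap-rich, dividing and ependymal-like with Gfap-poor cells, while neuroblast-like against dividing and young neuron-like against neuroblast-like cells scatter on both sides of 0.

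From dividing cells to neuroblast-like cells, no member was called in either direction in edgeR, with 6.71% of all genes higher and 8.04% lower. The median was 0.16, with members between -0.54 and 0.64; 11 had an unadjusted p under 0.05 (25.5% of all genes), and DESeq2 called 13 higher (3.44% of all genes). For 30 members both neuroblast-like sums lay above both dividing sums, and for 8 below, against 23.3% and 26.9% of all genes tested. Rps27 had the largest value, 0.64 ± 0.25 (adjusted p = 0.0675), at 2774 and 2876 CPM in dividing and 4254 and 4555 CPM in neuroblast-like cells. Rpl3, a large-subunit protein near the peptidyl transferase centre, had the lowest, -0.54 ± 0.24 (adjusted p = 0.12), at 2185 and 2381 against 1460 and 1670 CPM. The count of higher members was 19 with the tdTomato-positive library left out of the fit, beside 416 of the 3006 genes then tested. Such calls did not hold without either negative library, where each class keeps a lone sum.

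Young neuron-like and neuroblast-like cells differed least. No member was called in edgeR, none had an unadjusted p under 0.05 (5.06% of all genes), and DESeq2 called none. The median was 0.01, with the members between -0.31 and 0.20, and all genes tested gave 0.183% higher and 0.104% lower. The median young neuron-like cell held fewer ribosomal protein UMIs than the median neuroblast-like cell (ratios of 0.648 and 0.731) and fewer UMIs of all genes (0.723 and 0.751). The share in the summed cells was 0.996 and 0.999 times that of the neuroblast-like cells.

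Ependymal cells are known as postmitotic. In ependymal-like cells 51 of 53 members rose over Gfap-poor cells, with none lower (edgeR; 18.3% of all genes higher, 11.3% lower and 29.6% in all). The median was 1.28 over the members and 0.11 over all genes, and for 50 members every ependymal-like sum lay above every Gfap-poor sum, as for 22.9% of all genes tested. The dividing-cell markers held 1246, 1064 and 488 CPM in ependymal-like and 797, 845 and 191 CPM in Gfap-poor cells. Rps25 led at 1513, 1248 and 1419 CPM (negative 1, negative 2, tdTomato-positive), against 349, 381 and 229, a rise of 2.01 ± 0.25 (edgeR adjusted p = 1.15e-13). The stalk proteins Rplp2 (1.90) and Rplp1 (1.86), and Rps27 (1.79) and Rpl38 (1.78), followed.

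Members not called were Rpl19 (0.47) and Rpl28 (0.59). Rpl19 stood at 934, 788 and 993 CPM in ependymal-like and at 810, 565 and 649 CPM in Gfap-poor cells. Rpl28 stood at 645, 667 and 738 CPM in ependymal-like and at 699, 396 and 305 CPM in Gfap-poor cells. Both are large-subunit proteins, and the groups overlapped for each. The called number was 27 without negative library 1 and 25 without negative library 2. DESeq2 moved the split over all genes from 701 higher and 434 lower to 481 and 453. These comparisons with Gfap-poor cells share the same 3 sums, so calls that recur between them are not independent.

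Set against neuroblast-like cells, ependymal-like cells had 26 members lower and 1 higher, with 14.8% of all genes lower and 23.3% higher. The median was -0.59, and for 46 members every ependymal-like sum lay below both neuroblast-like sums, as for 30.1% of all genes tested. The median mitochondrial share was 6.32%, 7.29% and 9.11% in ependymal-like against 3.18% and 3.15% in neuroblast-like cells. Its part in the difference was not tested. Rpl15, a large-subunit core protein, stood at 512, 650 and 598 CPM against 1873 and 1787 CPM (log2 -1.45 ± 0.26, edgeR adjusted p = 2.3e-07). Rplp0 stood at 823, 1110 and 971 CPM against 2809 and 2727 CPM (-1.44 ± 0.25, adjusted p = 1.14e-07). Rpl35, which lies beside the exit tunnel, stood at 1179, 1283 and 966 against 3516 and 3961 CPM (-1.38 ± 0.26, adjusted p = 1.01e-06).

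Rplp1 was the exception. It stood at 2269, 1680 and 2327 CPM in ependymal-like and 1317 and 1409 CPM in neuroblast-like cells and was higher by 0.71 ± 0.25 (edgeR adjusted p = 0.0153). That call was lost without the library block, without a count filter and with TMM factors computed without ribosomal protein genes. No member was lower without negative library 1, and 11 were without negative library 2. The median ependymal-like cell held 0.737 and 1.02 times the ribosomal protein UMIs of a neuroblast-like cell among 1.34 and 1.88 times as many UMIs in all.

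Differences within the pool were then measured by scaling each sum to its UMIs from all 80 cytosolic ribosomal protein genes, a step added after the data were seen. On this scale a gene is called when its part of the pool changes, and genes outside the pool are called lower wherever the pool grows. No member was called for its part between Gfap-rich and Gfap-poor cells (0.47% of all genes higher, 20.8% lower), although 17 had risen in level. The log2 changes in part ran from -0.42 (Rps20, SE 0.24) to 0.39 (Rps25, SE 0.21). The lack of calls therefore does not show an unchanged make-up.

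Between dividing and Gfap-poor cells 9 members took a larger part of the pool and 6 a smaller one (4.38% and 58.9% of all genes, 63.3% in all). The larger parts were those of Rplp0 (log2 0.95 ± 0.16, edgeR adjusted p = 6.64e-09), Rpl4 (0.88), Rpsa (0.60), Rps19, Rps24, Rpl3, Rps28, Rpl32 and Rps4x. The smaller ones were those of Rpl38 (-0.56 ± 0.14, adjusted p = 0.00027), Rps21 (-0.55), Rps27 (-0.51), Rpl19, Rps14 and Rpl37. Against Gfap-rich cells 5 were larger and 4 smaller in dividing cells (5.35% and 23.4% of all genes), with Rpl4 at 1.03 and Rplp0 at 0.85 and with Rps27 at -0.64 and Rpl38 at -0.57. The Mcm2-led cluster against Gfap-rich cells gave 4 larger and 4 smaller (2.37% and 23.9%), and dividing against Mcm2-led cells gave 1 smaller, Rps2 (-0.36, adjusted p = 0.0485; 5.09% of all genes higher, 0.835% lower).

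Neuroblast-like and dividing cells, which had no member called in level, had 9 with a larger and 8 with a smaller part of the pool (6.37% and 15.3% of all genes). The larger parts included Rps27 (0.46), Rpl34 (0.40) and Rpl38 (0.36). The smaller ones included Rpl3 (-0.72 ± 0.12, edgeR adjusted p = 6.29e-08), Rplp1 (-0.49) and Rps20 (-0.48). No member was called for its part between young neuron-like and neuroblast-like cells in edgeR (0.339% of all genes higher, 0.313% lower).

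Ependymal-like against neuroblast-like cells had the most members called for their part of the comparisons run, with 11 larger and 11 smaller. Of all genes 33.7% were called larger and 8.12% smaller, 41.8% in all. Taken in both directions, the members were called about as often as all genes. The stalk proteins divided: Rplp1 (1.27 ± 0.14, edgeR adjusted p = 5.36e-18) and Rplp2 (0.91 ± 0.14, adjusted p = 6.42e-10) were larger, and Rplp0, which carries them, smaller (-0.75). Rps25 (0.71), Rpl38 (0.69) and Rps20 (0.67) were also larger, and Rpl15 (-0.80), Rpl35 (-0.78) and Rpl10 (-0.54) smaller. Against Gfap-poor cells 5 members were larger and 4 smaller (8.19% and 42.8%), led by Rps25 (0.66) and Rplp2 (0.54) and by Rpl19 (-0.88) and Rpl18 (-0.71).

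Over the 7 classes of the plot of pool make-up (Gfap-poor, Gfap-rich, Mcm2-led, dividing, neuroblast-like, young neuron-like and ependymal-like), parts of the UMIs of the 53 genes were averaged over libraries. Rplp1 made up 3.20% in ependymal-like and 1.25% in young neuron-like cells. Rpl35 went the other way, with 1.75% in ependymal-like and 3.66% in young neuron-like cells. Rplp0 ran from 1.48% in ependymal-like to 3.02% in Mcm2-led cells, Rps27 from 2.90% in Mcm2-led to 5.80% in ependymal-like cells, and Rpl38 from 2.05% in dividing to 4.17% in ependymal-like cells. Rps29, the member with the most UMIs over all cells (20531, 4.57% of those of the 53 genes), ran from 4.07% in neuroblast-like to 5.67% in Gfap-poor cells, though the Gfap-poor sums themselves ranged from 3.69 to 8.02%. Outside these classes Rps29 reached 8.40% in microglia-like and Rpl38 4.49% in endothelial-like cells, each a single sum. The steadiest member over the 7 classes was Rpl24, at 1.63 to 1.90%. The 3′ counting protocol captures genes unequally, so these parts compare classes for a gene and not genes with each other.

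**Figure D4:**
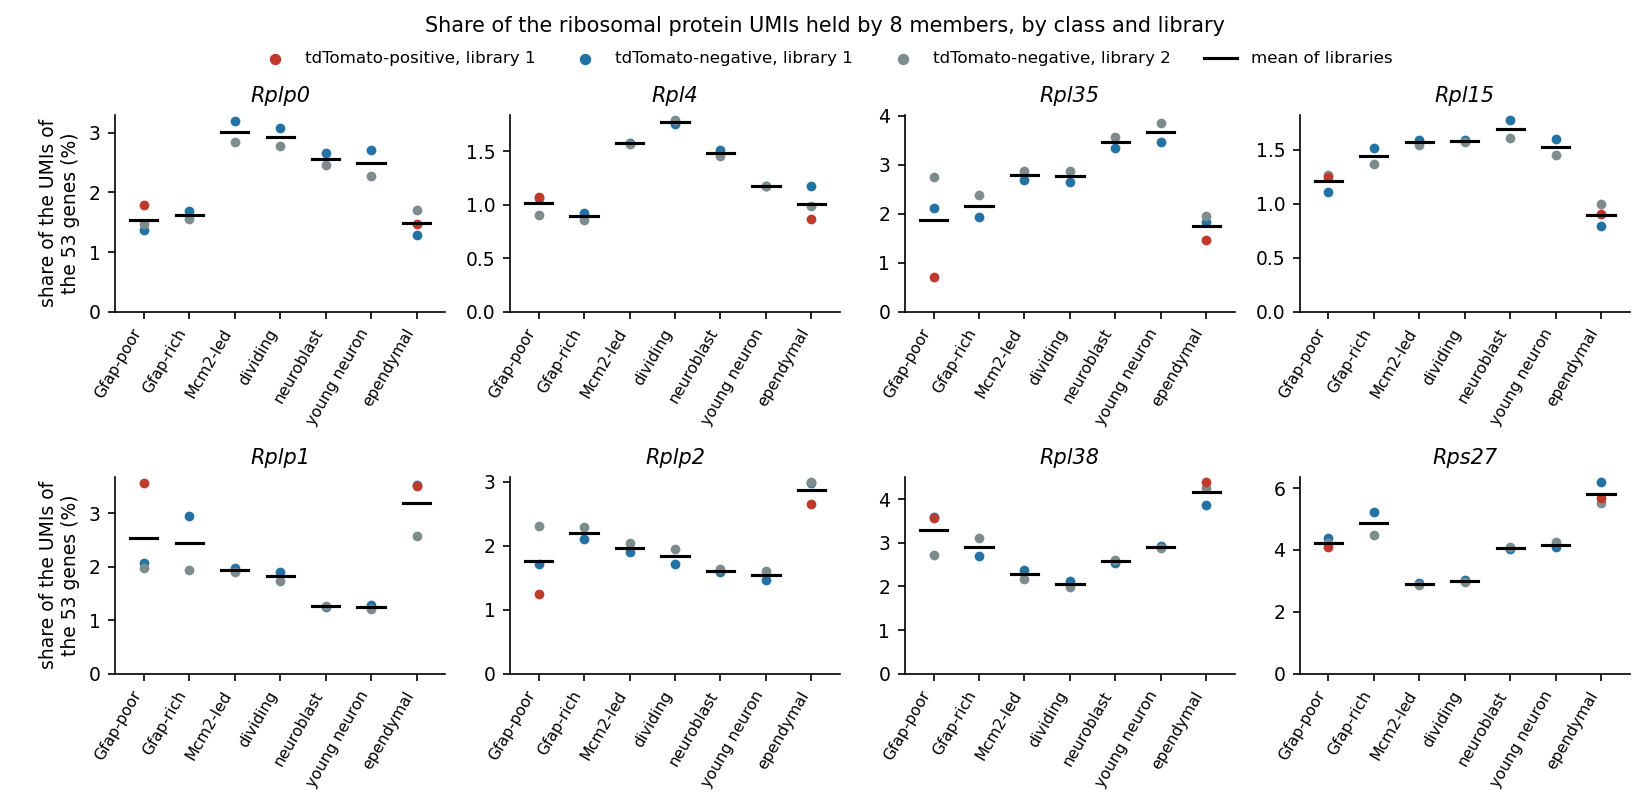
Percent of the UMIs of the 53 genes held by each of 8 members (vertical axes) in 7 cell classes, with a point for each library and a bar at the mean of libraries. Rplp1, Rplp2, Rpl38 and Rps27 stand high in ependymal-like cells, and Rplp0, Rpl4, Rpl35 and Rpl15 stand lower there than in neuroblast-like cells, with Rplp0, Rpl4 and Rpl35 near their Gfap-poor values.

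Rpl13 in oligodendrocyte precursor-like cells was the largest departure of any member in any class, and was noticed after the values were seen, so no test is given. Rpl13, a large-subunit protein encoded on the + strand at chr8:123102350-123105244 (GRCm38, GENCODE vM21), held 9.59% of the UMIs of the 53 genes in these cells in negative library 1 (139 UMIs, 12 cells) and 9.37% in library 2 (424 UMIs, 37 cells). In the other 21 sums it held between 2.14% and 3.64%. By level it stood at 4687 and 3711 CPM. Of the 49 oligodendrocyte precursor-like cells, 43 had a larger part of Rpl13 than the highest other sum (3.64%). Of the 1580 other cells, 3 exceeded 9.37%, a higher cut that the median precursor-like cell (6.67% and 7.91%) did not reach either. Single cells of other classes also passed 3.64%: the upper quartile of Gfap-poor cells was 4.42% and 4.35% in the negative libraries. The classes therefore overlapped in single cells. Relative to the median of the other classes its part was 3.11 times as large, and the next largest such ratio of any member and class was 2.14, for Rps20 in endothelial-like cells. Downward, the smallest ratio was 0.382, for Rpl28 in microglia-like cells, which have a single sum.

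When cells were clustered with a stricter cell filter, at a higher resolution or on the other genes, the class took in further cells. Rpl13 then held 6.12 to 6.36% there, against at most 3.64% in other classes. Small-subunit genes made up 39.8% and 38.0% of the UMIs of the 53 genes in this class and 41.2 to 47.2% in the others. Without Rpl13 these became 44.0% and 41.9% against 42.3 to 49.0%. The Rpl13 gene lies inside the annotated span of Gm20388 on the same strand, for which no UMI was counted, and its neighbour Spg7 held 202 UMIs over all cells. Whether the UMIs come from the Rpl13 mRNA itself was not tested.

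The paralogs did not follow the members everywhere. Rpl22l1, the close relative of Rpl22, rose with the pool in dividing cells (log2 1.44 ± 0.25 over Gfap-poor cells, edgeR adjusted p = 5.61e-08). It then fell in neuroblast-like cells by 1.31 (SE 0.25, adjusted p = 3.7e-06), from 984 and 1160 to 468 and 416 CPM, while Rpl22 stood at 593 and 723 against 905 and 864 CPM (0.41, not called). Rps27l, the relative of Rps27, fell likewise by 1.20 (SE 0.25, adjusted p = 3.05e-05), from 685 and 614 to 278 and 288 CPM. Both were higher in ependymal-like than in neuroblast-like cells (1.12 and 0.79). A further copy, the retrogene Rps27rt, held UMIs equal to 34.8%, 15.4% and 26.0% of those of Rps27 in negative library 1, negative library 2 and the tdTomato-positive library. Within a library the ratio varied less between classes (24.5 to 35.9%, 9.85 to 17.0% and 14.3 to 26.4%), and Rps27 counts are uncertain to that degree; how reads were divided between the copies was not tested.

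The other genes of the translation machinery were followed through 9 lists, some of which share genes. In dividing over Gfap-poor cells 26 of the 27 other cytosolic ribosomal protein genes were higher, 6 of 8 elongation factors, 17 of 18 non-ribosomal 5′ TOP mRNAs and 15 of 29 ribosome biogenesis genes, with none of these lower. Of 30 initiation factors 23 were higher and 1, Eif3j1, lower (log2 -0.92). Eef1a1, which brings aminoacyl-tRNA to the ribosome, stood at 615, 476 and 305 CPM against 2822 and 2827 CPM (2.40 ± 0.26, edgeR adjusted p = 5.86e-19). Hnrnpa1, an RNA-binding protein encoded by a 5′ TOP mRNA, stood at 140, 102 and 38 against 1536 and 1358 CPM (3.52 ± 0.30, adjusted p = 2.36e-30). Lyar (2.79), Nop58 (2.72) and Npm1 (2.62), nucleolar proteins of ribosome assembly, led the biogenesis list.

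Of 65 genes for the ribosome of the mitochondria, 7 were higher and 3 lower in dividing cells, below the shares of all genes (21.6% and 21.7%). Among 17 growth control genes, Mycn had 99 UMIs in dividing and 0 in Gfap-poor cells (at least 15.2-fold higher, from a floor of 3 UMIs), and 6 were lower, among them Rps6kb2 (-2.67), an S6 kinase, and Ddit4 (-2.23) and Rictor (-2.12), regulators of mTOR signalling. Between Gfap-rich and Gfap-poor cells 9 of the 27 other cytosolic ribosomal protein genes were higher, such as Rpl36a (1.28) and Rpl37a (0.97). In edgeR none of the elongation, initiation, 5′ TOP, biogenesis, RNA polymerase or mitochondrial ribosomal genes was called there.

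In ependymal-like over Gfap-poor cells 25 of the 27 other cytosolic ribosomal protein genes were higher, beside 18.3% of all genes. Of 18 other 5′ TOP mRNAs 7 were higher, and of 8 elongation factors 3 (Eef1b2 1.42, Eef1a1 1.04). Below the share of all genes were the biogenesis list, with 2 of 29 higher (Nop10 1.22, Npm1 1.20), and the initiation factors, with 3 of 30 higher and Eif4a1 lower (-0.94). These counts share the Gfap-poor sums with those of dividing cells, and the difference between them was not tested. Eif4a1, the helicase that unwinds 5′ leaders, stood at 89, 92 and 109 CPM in ependymal-like and 1071 and 1166 CPM in neuroblast-like cells (-3.07 ± 0.32, edgeR adjusted p = 3.11e-20). Against neuroblast-like cells 18 of the 27 other ribosomal protein genes, 11 of 18 5′ TOP mRNAs and 10 of 30 initiation factors were lower, against 14.8% of all genes. Of 65 mitochondrial ribosomal protein genes 10 were higher, led by Mrps6 (2.44) and Mrpl33 (1.90), and 1 lower, fewer on both sides than the shares of all genes (23.3% and 14.8%).

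From dividing to neuroblast-like cells, where no member or other ribosomal protein gene was called, 7 of 29 biogenesis genes fell and none rose, beside 8.04% of all genes lower and 6.71% higher. Lyar fell by 2.08 on the log2 scale, from 121 and 172 to 40 and 36 CPM, and Gar1 and Nolc1 fell by 1.10 each. Among the 5′ TOP mRNAs Nap1l1 fell by 1.26 and Npm1 by 0.63, and Eif3h was higher by 0.73.

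**Figure D5:**
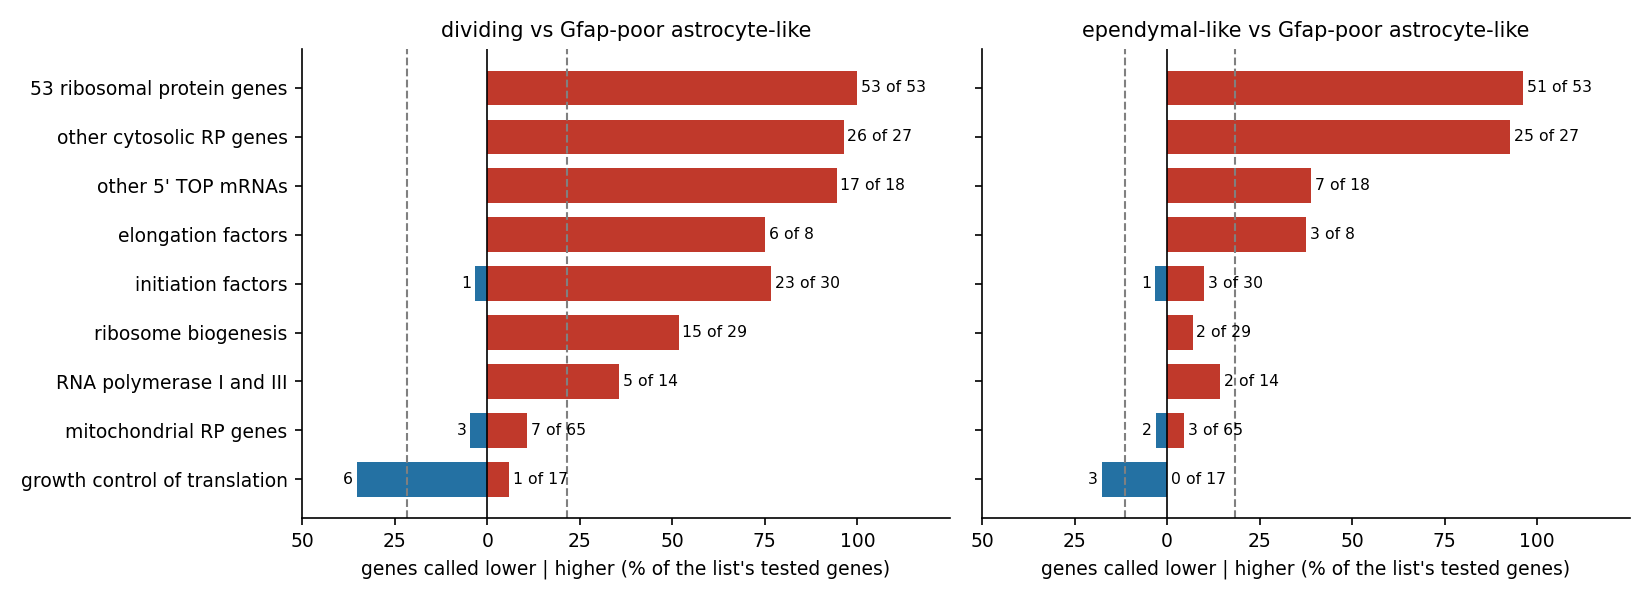
Percent of the tested genes of each list called higher (bars to the right) or lower (to the left) in dividing and in ependymal-like cells over Gfap-poor cells, with dashed lines at the shares of all genes. The cytosolic ribosomal protein lists are high in both panels, and the elongation, initiation, 5′ TOP and biogenesis lists are higher in the dividing panel than in the ependymal-like one.

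Between the sort gates the members were tested in ependymal-like cells alone, with 1 tdTomato-positive sum against 2 negative ones. In edgeR no member was called (0.0% of the 2140 genes tested), none had an unadjusted p under 0.05, and DESeq2 called none. The median was 0.12, with members between -0.27 (Rpl35, SE 0.25) and 0.47 (Rps12, SE 0.29). The lone positive sum was assumed to vary like the negative ones, and gate and library cannot be told apart. Gfap-poor and oligodendrocyte-like cells also had a sum in every library, and their gates were not tested. The share of the 53 genes was lower behind the tdTomato-positive gate in Gfap-poor cells (2.14% against 2.76% and 2.71%). The same held in oligodendrocyte-like cells (4.18% against 4.69% and 4.73%). In ependymal-like cells it was higher (6.64% against 6.43% and 6.54%).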

How the data were processed

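Per the labels' protocols, cells were captured on the 10x Chromium platform with 3′ v2 chemistry. The mm10 and GRCm38.p5 builds are named in the submitters' processing notes, as are Seurat 1.4.0.15, STAR and Cell Ranger. The authors deposited a matrix of raw UMI counts per gene and cell for each library, already reduced to called cells (314, 259 and 1127 barcodes, with 788344, 929997 and 3593633 UMIs). The members and lists were chosen with earlier results of these data known.

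Cells were kept from 300 genes upward and up to a mitochondrial share of 25% (1629 cells), without removing doublets; Scrublet marked 9, 2 and 3 cells. Cells were clustered in scanpy 1.11.5 (1000 variable genes, 20 components, 15 neighbours, Leiden resolution 1.0, seed 1) on genes with an even last digit in their Ensembl number plus markers, and never on the members or lists, so that tested genes did not define the classes. Clusters were named from 14 lists of 149 markers. Counts were summed per library and class (at least 10 cells, 23 sums) and tested with edgeR 4.0.16 (R 4.3.3; filterByExpr, TMM, quasi-likelihood fit over all sums, library as block, Benjamini-Hochberg adjusted p under 0.05). SEs were derived from the log2 fold change and F. The text names up to 5 called members with the largest change in each direction of a comparison. It also names the members with the most UMIs, the paralogs, and up to 3 called genes of each list. Members with the most variable part of the pool were sought among those with at least 20 UMIs in every sum. Only 3 members met this, so they were named whatever their variation. Members with the smallest changes and Rpl13 were chosen after their values were seen. The procedure was tested on simulated data. The alternatives were RLE factors, DESeq2 1.42.0, TMM without ribosomal protein genes, no count filter, no library block, each library left out, a stricter cell filter (500 genes, 10% mitochondrial), other resolutions, clustering on odd-digit genes, and removal of Scrublet calls. Intervals between libraries are SDs, and depth limits single cells more than sums.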

Additional observations from a re-analysis of the deposited data

Results flagged for a closer look

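Signal lay in ribosomal protein rows outside the 80 genes. The retrogene Rps27rt held 3510 UMIs over the 3 libraries, 20.4% of those of Rps27. Annotated pseudogene rows, 16 in number, held 7624 UMIs, among them Rpl23a-ps3 with 2275 (21.9% of Rpl23a), Rps12-ps3 with 1220 (33.8% of Rps12) and Rpl27-ps3 with 629 (13.2% of Rpl27). Such counts may be reads divided between near-identical copies, which was not tested, and the levels of Rps27 and Rps12 are uncertain to that degree. No group held the 4 samples needed to look for a sample far from the others.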

How the results depend on the processing

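No paired analysis was possible because the sort gates share only 1 replicate number; in the class comparisons the library was the block, and no replicate block left 1 member called higher in Gfap-rich over Gfap-poor cells (17 with it), 17 in dividing over Gfap-rich cells (41) and 0 in ependymal-like over neuroblast-like cells (1). Calls in Gfap-rich over Gfap-poor cells were 42 with RLE, 41 with DESeq2, 0 without a count filter, 30 with the stricter cell filter, 31 and 29 at resolutions 0.5 and 2.0, 26 without Scrublet calls, and 0 to 37 when a library was left out. For neuroblast-like over dividing cells (0) they were 18 with RLE, 13 with DESeq2, 16 with the stricter filter, 5 and 7 at the 2 resolutions, 10 with odd-digit clustering, 10 without Scrublet calls and 0 to 19 with a library left out; 1 member was lower with RLE, with the stricter filter, at both resolutions and with odd-digit clustering, and 0 to 1 with a library left out. Leaving out a library gave 0 to 45 for dividing over Gfap-rich, 43 to 53 for dividing over Gfap-poor, 25 to 50 for ependymal-like over Gfap-poor and 0 to 51 for Mcm2-led over Gfap-rich cells. For ependymal-like against neuroblast-like cells the higher count was 2 with RLE and DESeq2, 0 with TMM without ribosomal protein genes and without a filter, and 0 to 1 with a library left out; the lower count was 41 with the stricter filter and 0 to 39 with a library left out. For dividing against Mcm2-led cells the lower count was 4 with RLE, 1 with DESeq2, 2 with the stricter filter, 1 at resolution 2.0 and 0 to 4 with a library left out. Leaving out a library also leaves fewer sums, and the counts then went both up and down. Calls over all genes changed with the settings as well. For neuroblast-like over dividing cells 257 of 3832 genes were higher in the main fit, 376 with RLE and 132 with DESeq2. With the stricter filter 342 of 3702 were higher. For Gfap-rich over Gfap-poor cells 59 of 3832 were higher in the main fit, 123 with RLE and 99 with DESeq2. With the stricter filter these were 91 of 3702, and without a count filter 23 of 8685. The cause of these changes, in members or in all genes, was not tested.

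Counted over all 80 cytosolic ribosomal protein genes, the share was 3.94% in Gfap-poor, 6.64% in oligodendrocyte precursor-like, 7.03% in oligodendrocyte-like, 8.53% in Gfap-rich, 9.94% in ependymal-like, 14.7% in dividing, 16.7% in neuroblast-like, 16.7% in young neuron-like and 17.7% in Mcm2-led cells. With the stricter filter the share of the 53 genes was 5.93% in Gfap-rich, 11.29% in Mcm2-led, 6.78% in ependymal-like and 4.20% in oligodendrocyte-like cells. With cells of at least 2000 UMIs it was 6.01% in Gfap-rich and 6.72% in ependymal-like cells, and without mitochondrial UMIs 11.9% in Mcm2-led and 7.11% in ependymal-like cells. It was 11.2% in Mcm2-led and 4.15% in oligodendrocyte-like cells with odd-digit clustering, and 6.72% in ependymal-like and 4.19% in oligodendrocyte-like cells at resolution 2.0. No called result changed direction; the members' median of young neuron-like against neuroblast-like cells, where none was called, lay on both sides of 0 (-0.09 to 0.11). The members' median log2 fold change stayed between 0.59 and 0.93 (Gfap-rich over Gfap-poor), 1.25 and 1.75 (dividing over Gfap-poor), 0.54 and 1.03 (dividing over Gfap-rich), 0.99 and 1.35 (ependymal-like over Gfap-poor) and -0.81 and -0.44 (ependymal-like against neuroblast-like). Depth differed between sums, and its part in the number of calls was not tested.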
